A study of Mus musculus with 15 samples.

Results

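A set of 9 genes of the DNA damage response and of apoptosis (Atm, Trp53, Cdkn1a, Bax, Bid, Bcl2, Bcl2l11, Casp2 and Casp8) was followed in LPS-treated macrophages that had received extracellular vesicles (EVs) from irradiated mice. The genes were chosen by symbol, and 8 of the 9 have a row among the 561 genes of the panel used here. Bcl2l11, which encodes the BH3-only protein Bim, has no row in the table used here and was not analysed. All 8 genes with a row passed the filter on low counts, which asked for 20 or more on average across the 15 samples, and are among the 269 genes tested. Atm had a mean count of 24.4 over all samples but 14.7 without the 9 Gy day 7 group, so it passed only through the group in which its counts were highest. The other 7 genes stayed above the filter without any 1 group.

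Ionizing radiation breaks DNA, and the kinase ATM is activated at such breaks and acts on p53, the product of Trp53. p53 in turn raises transcription of genes such as Cdkn1a, whose product p21 halts the cell cycle, and Bax, whose product permeabilizes the outer mitochondrial membrane. BCL-2 opposes BAX, BID links death receptor signaling to the mitochondria once caspase-8 has cut it, and caspase-2 and caspase-8 are initiator caspases. Such responses in cells that were never irradiated themselves are known as a bystander effect, and the comparison of EVs from irradiated and sham mice asks about EVs as a possible carrier. Much of the activity of ATM, p53, BID and the caspases is set after translation and is not seen in mRNA counts.

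The recipients were RAW 264.7 macrophages, a macrophage-like line from a mouse tumor induced by Abelson virus, and none of them was irradiated. Every sample received LPS, a bacterial cell wall component that activates macrophages, together with EVs for 24 hours, so the sham group is a group with LPS and EVs and not an untreated control. The EV donors were female C57BL/6J mice, 6 to 8 weeks old, that were sham treated or had received whole-body ionizing radiation (WBIR), and the 5 groups of 3 samples were sham EVs, 2 Gy day 3 EVs, 2 Gy day 7 EVs, 9 Gy day 3 EVs and 9 Gy day 7 EVs, named by the dose and by the day of collection after it. The labels give 30000000 EVs per exposure and the methods 10000000, and the latter speak of triplicates. Neither says whether the 3 samples of a group came from separate cultures or donors, so p-values measure the spread between these samples, which may be technical.

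mRNA was counted on the nCounter Mouse Immunology panel (nanoString), an assay in which hybridized probes with color barcodes are tallied without an amplification step. The 9 Gy day 3 samples were shallow, with totals of 43176 to 87899 counts, against 453178 to 837995 in the other 12 samples. Replicates 1 and 2 titled as 9 Gy day 3 also carry a day label of 7, so the 9 Gy calls of the 8 genes are given with these samples at day 3, by title, and without them. Counts divided by the relative geometric mean of 14 housekeeping genes are called normalized counts. Under this scaling the median gene tested fell by 0.46 (log2) in 9 Gy day 3 EVs and by 0.45 in 9 Gy day 7 EVs against sham EVs, and 3 of the 13 housekeeping genes tested were higher and 6 lower at 9 Gy day 3. The geometric mean of these genes was 454 to 545 counts in the sham samples and 801 to 872 at 9 Gy day 7, although the totals of the latter were not larger, so a direction relative to the housekeeping genes need not be the direction relative to the rest of the panel. Of the 7 macrophage markers tested, 1 was higher and 5 were lower in each comparison of 9 Gy EVs, beside 11.2% to 15.6% of all genes tested that were higher and 41.3% to 52% that were lower, and their summed share of all counts lay between 0.834% and 1.49% in the sham samples, 0.845% and 1.30% at 9 Gy day 3 and 0.953% and 1.16% at 9 Gy day 7. Markers of T and NK cells summed to between 0.0393% and 0.0418% of all counts in the sham samples and 0.0352% and 0.0460% in the 2 Gy samples. They summed to between 0.0432% and 0.0672% at 9 Gy day 3 and 0.0474% and 0.0568% at 9 Gy day 7. On this scale all 6 samples with 9 Gy EVs lay above the sham samples. The 9 Gy day 3 shares rest on sums of 28 to 38 counts, in samples where 190 to 246 genes held 1 count. The other samples had 5 to 11 such genes. A count of 1 was the lowest deposited and may be a floor, which would raise a share of a small total. The part of such a floor in the day 3 shares was not tested. Of 15 T and NK cell markers on the panel, the highest count in any sample ran from 6 to 175. The 2 that were tested were both lower relative to the housekeeping genes in each comparison of 9 Gy EVs. Of 8 B cell markers 3 were tested, and 0 were lower at 9 Gy day 3, 1 at day 7 and 1 between doses. Without the samples of conflicting day label, 2, 5 and 3 of the macrophage markers and 1, 2 and 1 of the T and NK markers were lower at 9 Gy day 3, at day 7 and between doses, beside 26%, 51.7% and 46.1% of all genes tested. The part of these shifts in the results below was not tested. Per the methods a fixed amount of RNA was hybridized, so the counts measure neither cell number nor RNA per cell, which cannot be told apart in such bulk samples. The cause of the low totals at 9 Gy day 3 was not tested. Counts of different genes were not compared as levels, since probes differ in efficiency.

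RefSeq promoter windows (GRCm38.p6, 250 bases before to 50 after the start of a transcript, sense strand) matched all 9 genes, with 11 windows in all. They were searched on both strands for the interferon-stimulated response element core GAAANNGAAA, the p53 half-site, an NF-kB site and the GC box GGGCGG. The p53 half-site reads alike on both strands and was found in 3 of the 11 windows, 1 each of Trp53, Cdkn1a and Bax, and in 8.36% of the 32851 windows of all genes. The windows of these genes are shown because p53 is known to activate Cdkn1a and Bax, whose values are given below beside those of Trp53. Capitals mark p53 half-sites and, in Trp53, also the NF-kB site.
Trp53, chr11:69580109-69580408, plus strand: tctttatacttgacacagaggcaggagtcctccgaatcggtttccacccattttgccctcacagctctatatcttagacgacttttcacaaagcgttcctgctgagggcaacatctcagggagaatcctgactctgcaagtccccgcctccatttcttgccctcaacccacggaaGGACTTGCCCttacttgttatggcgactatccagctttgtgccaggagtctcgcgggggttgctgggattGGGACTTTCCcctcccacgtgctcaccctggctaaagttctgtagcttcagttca
Cdkn1a, chr17:29090729-29091028, plus strand: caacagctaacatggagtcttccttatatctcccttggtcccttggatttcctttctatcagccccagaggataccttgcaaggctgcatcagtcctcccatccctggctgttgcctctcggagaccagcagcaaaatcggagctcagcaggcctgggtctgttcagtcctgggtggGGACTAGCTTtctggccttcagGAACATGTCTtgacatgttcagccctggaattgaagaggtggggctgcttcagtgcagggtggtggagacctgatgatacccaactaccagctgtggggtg
Bax, chr7:45466849-45467148, minus strand: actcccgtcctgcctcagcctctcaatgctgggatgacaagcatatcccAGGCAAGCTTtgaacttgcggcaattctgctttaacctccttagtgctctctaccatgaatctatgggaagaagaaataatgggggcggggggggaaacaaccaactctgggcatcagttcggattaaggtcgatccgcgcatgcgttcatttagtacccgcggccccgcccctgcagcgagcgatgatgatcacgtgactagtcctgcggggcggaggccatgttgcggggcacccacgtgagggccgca
The Cdkn1a window holds a pair of half-sites, starting 73 and 51 bases before the transcript start, and another Cdkn1a window of RefSeq holds none. The half-site begins 75 bases before the start in Trp53 and 201 bases before it in Bax. The NF-kB site, found in 4.51% of all windows, lies across the Trp53 start. The interferon element core was found in none of the 11 windows and in 3.44% of all windows. The GC box was found in 8 of the 11 windows, of 7 genes, and in 35.7% of all windows. These matches describe letters in a window, and binding was not measured.

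Atm was higher with 9 Gy EVs than with sham or 2 Gy EVs. Its normalized count was 11.7, 13.1 and 9.79 in the sham samples. It was 14.6, 12.3 and 17.2 in the 2 Gy day 3 group and 13.3, 13.3 and 12.9 in the 2 Gy day 7 group. With 9 Gy EVs it was 65.2, 28.03 and 19.8 at day 3 and 32.5, 41.5 and 20.2 at day 7. All 6 samples with 9 Gy EVs lay above all 9 others, whose highest value was 17.2. Means were 11.5 ± 1.65 in the sham group, 37.7 ± 24.2 in the 9 Gy day 3 group and 31.4 ± 10.7 in the 9 Gy day 7 group (SD, n = 3 each). Relative to sham EVs Atm rose by 1.56 (SE 0.43, log2) at 9 Gy day 3 (edgeR quasi-likelihood test, adjusted p = 0.00884) and by 1.43 (SE 0.32) at 9 Gy day 7 (adjusted p = 0.0015), which are 2.95-fold and 2.70-fold. It was 1.23 (SE 0.26) higher with 9 Gy than with 2 Gy EVs (adjusted p = 0.000985).

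The Atm values rest on few counts. The sham samples held 13 to 17 counts and the 9 Gy day 3 samples 6 to 11, while the 9 Gy day 7 samples held 43 to 81. For scale, the median count of 23 lymphocyte markers was 7 to 12 in the sham samples, 1 in each 9 Gy day 3 sample and 8 to 9 in the 9 Gy day 7 samples, and no background from control probes was subtracted. Without 9 Gy day 3 replicate 1 the day 3 difference was 1.03 (adjusted p = 0.0713), and with both samples of conflicting day label left out it was 0.78 (adjusted p = 0.39), the 1 remaining sample being assumed to vary like the other groups. The 9 Gy against 2 Gy difference was then 0.84 (adjusted p = 0.0543). With those samples placed at day 7, Atm was 1.52 higher at 9 Gy day 7 than with sham EVs (adjusted p = 0.000426). Leaving out any 1 sample kept the day 7 difference between 1.18 and 1.67, past the threshold each time, and with both samples of conflicting day label left out it was 1.44 (adjusted p = 0.000762). With no filter on low counts, so that all 561 genes were tested, the differences were 1.55 at 9 Gy day 3 (adjusted p = 0.016), 1.43 at 9 Gy day 7 (adjusted p = 0.00146) and 1.23 between doses (adjusted p = 0.0014).

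**Figure D1:**
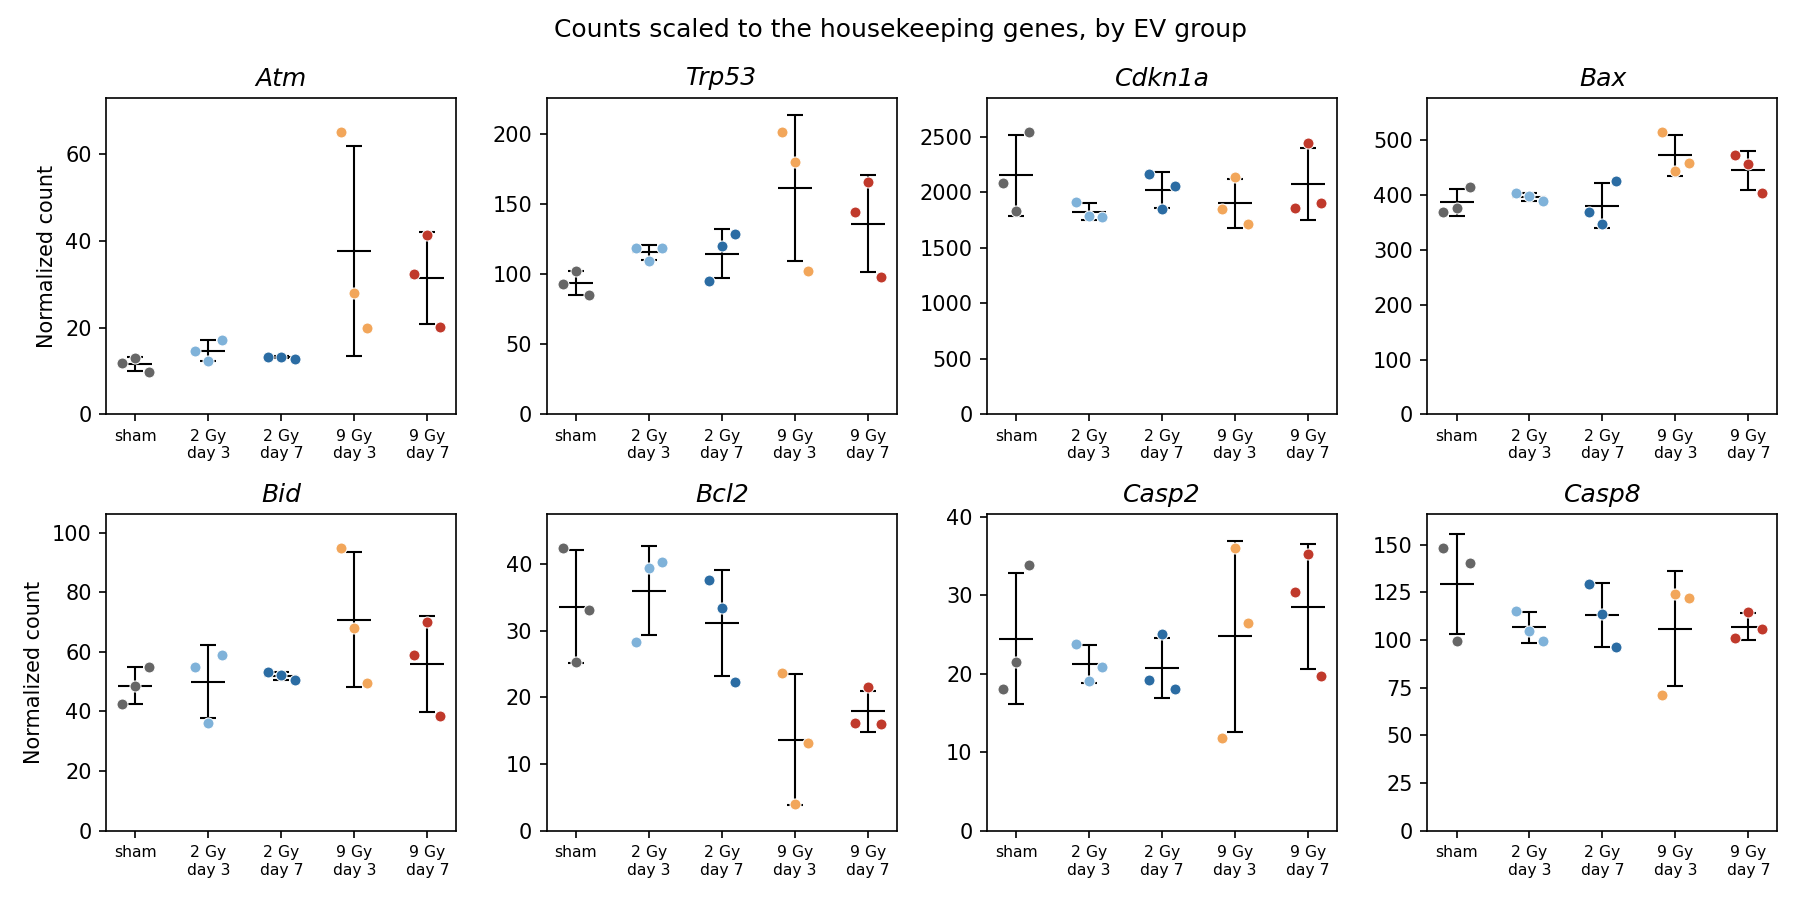
Normalized counts (y axes, linear, from 0) of the 8 genes in each of the 5 EV groups (x axes); points are samples in the order of replicates 1 to 3, and bars are the mean and SD of 3 samples. Relative to the housekeeping genes, Atm lay higher, and Bcl2 mostly lower, in the 6 samples with 9 Gy EVs than in the other 9, whereas Cdkn1a stayed between 1711 and 2545 in all samples.

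Trp53 followed with a smaller change. Its normalized count was 93.02, 102 and 85.1 in the sham group, 119, 109.6 and 119 in the 2 Gy day 3 group, and 95.3, 120.0 and 129 in the 2 Gy day 7 group. With 9 Gy EVs it was 202, 180.2 and 102 at day 3 and 145, 165 and 97.9 at day 7. Replicate 3 was the lowest sample of both 9 Gy groups, at 102.4 just above the highest sham sample (102.3) at day 3 and within the sham range at day 7. Trp53 rose by 0.76 (SE 0.25, log2) at 9 Gy day 3, or 1.69-fold (edgeR, adjusted p = 0.0215), and all 3 samples were above all sham samples. This call was lost when only the groups compared were fitted. At 9 Gy day 7 the difference from sham EVs was 0.54 (SE 0.23, adjusted p = 0.0529), and between 9 Gy and 2 Gy EVs it was 0.35 (SE 0.17, adjusted p = 0.0793). The latter was past the threshold without replicate 3 of the 9 Gy day 3 group (0.48, adjusted p = 0.012) or of the 9 Gy day 7 group (0.44, adjusted p = 0.0211). The day 3 difference was 0.58 without 9 Gy day 3 replicate 1 (adjusted p = 0.0939), 0.65 without replicate 2 (adjusted p = 0.0945), 0.69 without sham replicate 3 (adjusted p = 0.066) and 0.13 with both samples of conflicting day label left out (adjusted p = 0.794). In the other direction, the 9 Gy day 7 difference was 0.73 without 9 Gy day 7 replicate 3 (adjusted p = 0.0105), and 0.70 with the samples of conflicting day label placed at day 7 (adjusted p = 0.00664).

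Cdkn1a passed no test relative to the housekeeping genes, although it was higher when scaled to total counts (0.85 at 9 Gy day 3 and 1.06 at day 7 against sham EVs). Its normalized count was 2085, 1829.7 and 2545 in the sham group, 1914, 1785 and 1777 in the 2 Gy day 3 group, and 2164, 1847 and 2059 in the 2 Gy day 7 group. It was 1849, 2142 and 1711 in the 9 Gy day 3 group and 1861, 2444 and 1906 in the 9 Gy day 7 group. The groups overlapped, and the highest sample was 1.49 times the lowest. The difference from sham EVs was -0.18 (95% interval -0.51 to 0.15) at 9 Gy day 3 and -0.06 (95% interval -0.38 to 0.27) at 9 Gy day 7. These intervals, on the log2 scale and relative to the housekeeping genes, leave out a 2-fold change in either group. The samples held 312 to 535 counts of Cdkn1a in the 9 Gy day 3 group.

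Among the BCL-2 family, Bcl2 fell relative to the housekeeping genes, but not relative to total counts, where it differed from sham EVs by -0.41 at 9 Gy day 3 and 0.20 at day 7. Its normalized count was 42.4, 25.4 and 33.1 in the sham group, 28.4, 39.5 and 40.3 in the 2 Gy day 3 group, and 37.7, 33.5 and 22.3 in the 2 Gy day 7 group. With 9 Gy EVs it was 23.7, 4.004 and 13.2 at day 3 and 16.2, 21.5 and 16.01 at day 7. All 6 of these samples were below all sham samples, and 1 of them, at 23.7, was above the lowest 2 Gy sample, at 22.3. Relative to sham EVs Bcl2 fell by 1.41 (SE 0.46, log2) at 9 Gy day 3 (edgeR, adjusted p = 0.0202) and by 0.90 (SE 0.28) at 9 Gy day 7 (adjusted p = 0.0118). It was lower by 1.16 (SE 0.26) with 9 Gy than with 2 Gy EVs, a log2 difference of -1.16 (adjusted p = 0.00153).

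The Bcl2 counts at 9 Gy day 3 were 4, 1 and 4, a sum of 9 with a 95% Poisson interval of 4.12 to 17.1 that covers counting error only. The count of 1, in replicate 2, is the lowest deposited and was held by 216 genes of that sample. It may be a floor, which the interval does not take into account. The day 3 difference from sham EVs was -0.96 without 9 Gy day 3 replicate 2 (adjusted p = 0.115), -1.46 without replicate 3 (adjusted p = 0.0564), -1.21 without sham replicate 1 (adjusted p = 0.0515) and -1.34 with both samples of conflicting day label left out (adjusted p = 0.12). The 9 Gy day 7 samples held 33 to 42 counts, and the difference there was -0.71 without sham replicate 1 (adjusted p = 0.0621), -0.90 without both samples of conflicting day label (adjusted p = 0.0092) and -0.96 with them placed at day 7 (adjusted p = 0.00664). Between 9 Gy and 2 Gy EVs Bcl2 kept its call without any 1 sample and, at -1.13 (adjusted p = 0.0115), without both samples of conflicting label.

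Bax was higher with 9 Gy than with 2 Gy EVs by a small amount. Its normalized count was 369, 376 and 415 in the sham group, 405, 398 and 390.0 in the 2 Gy day 3 group, and 369, 347 and 426 in the 2 Gy day 7 group. It was 516, 444 and 459 in the 9 Gy day 3 group and 474, 457 and 405 in the 9 Gy day 7 group. All 3 samples at 9 Gy day 3 were above all 9 samples with sham or 2 Gy EVs, whose highest was 426, while day 7 replicate 3 fell among them. Bax was 0.24 (SE 0.09, log2) higher with 9 Gy than with 2 Gy EVs, or 1.18-fold (edgeR, adjusted p = 0.0255). Against sham EVs the differences were 0.29 (SE 0.12, adjusted p = 0.0668) at 9 Gy day 3 and 0.20 (SE 0.12, adjusted p = 0.158) at 9 Gy day 7. The call between doses was lost without 9 Gy day 3 replicate 1 (0.21, adjusted p = 0.0557), 9 Gy day 7 replicate 1 (0.21, adjusted p = 0.0533), 2 Gy day 3 replicate 3 (0.23, adjusted p = 0.0534) or 2 Gy day 7 replicate 2 (0.21, adjusted p = 0.0722). It was also lost without both samples of conflicting day label (0.22, adjusted p = 0.0928).

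Bid, a BH3-only gene, passed no test relative to the housekeeping genes. Its normalized count was 42.4 to 55.0 in the sham group, 36.1 to 59.0 in the 2 Gy day 3 group and 50.6 to 53.2 in the 2 Gy day 7 group. It was 94.8, 68.1 and 49.5 in the 9 Gy day 3 group, from 15 to 17 counts a sample, and 59.0, 70.2 and 38.6 in the 9 Gy day 7 group. The groups overlapped, and the log2 differences from sham EVs were 0.48 (95% interval -0.16 to 1.13) and 0.20 (95% interval -0.32 to 0.72).

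The initiator caspases passed no test on this scale either. Casp2 had normalized counts of 18.1, 21.5 and 33.9 in the sham group, 11.9, 36.0 and 26.4 in the 9 Gy day 3 group and 30.5, 35.3 and 19.8 in the 9 Gy day 7 group, from 2 to 9 counts a sample at 9 Gy day 3. Its log2 differences from sham EVs were 0.08 (95% interval -0.78 to 0.94) at 9 Gy day 3 and 0.21 (95% interval -0.39 to 0.80) at 9 Gy day 7. Casp8 had normalized counts of 148, 99.2 and 140.1 in the sham group, 71.1, 124 and 122 in the 9 Gy day 3 group and 101, 115 and 105 in the 9 Gy day 7 group. Its log2 differences were -0.25 (95% interval -0.72 to 0.22) and -0.27 (95% interval -0.68 to 0.14). The 2 Gy samples lay between 18.003 and 25.1 for Casp2 and between 96.0 and 129 for Casp8, and no group of either gene stood apart from the next.

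Counted over the 8 genes, 2 were higher (Atm and Trp53) and 1 was lower (Bcl2) at 9 Gy day 3 against sham EVs, where 11.2% of all 269 genes tested were higher and 41.3% lower. At 9 Gy day 7, 1 was higher (Atm) and 1 lower (Bcl2), against a background of 11.9% higher and 49.1% lower. These comparisons share the sham samples. Between 9 Gy and 2 Gy EVs, 2 were higher (Atm and Bax) and 1 was lower (Bcl2), against 15.6% higher and 52% lower. A fall such as that of Bcl2 was thus common among the genes tested, and its size relative to the median gene was -0.95 at 9 Gy day 3 and -0.45 at day 7. Relative to the median gene Atm stood at 2.02 and 1.88, Trp53 at 1.21 and 0.99, and Bax at 0.74 and 0.65 (all log2, day 3 and day 7).

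In at least 1 comparison, the call of every gene but Atm depended on the scaling. Scaled by TMM, which brought the median gene to 0.01, 0.03 and 0.02, Atm stayed higher, at 2.03, 1.92 and 1.70 for 9 Gy day 3 against sham, 9 Gy day 7 against sham and 9 Gy against 2 Gy, and it passed the test under all 5 scalings in all of these comparisons. As Atm met the filter only through 1 of these groups, the scalings were also run with no filter, and it then differed by 1.55 to 2.58 at day 3, 1.43 to 2.57 at day 7 and 1.23 to 2.38 between doses (highest adjusted p = 0.016). With TMM and the filter, Trp53 and Bax passed the test in all 3 comparisons as well, with log2 differences of 1.23, 1.03 and 0.82 for Trp53 and 0.76, 0.70 and 0.70 for Bax. Bid also passed with TMM and the filter, at 0.95, 0.69 and 0.74. Bcl2 was on that scale lower by 0.94 and 0.42 than with sham EVs, as differences of -0.94 (adjusted p = 0.118) and -0.42 (adjusted p = 0.202), and kept its call between doses at -0.70 (adjusted p = 0.0334). Scaled to total counts, Bcl2 differed by -0.41, 0.20 and -0.04 and passed no test (adjusted p = 0.519, 0.574 and 0.924), and Cdkn1a and Casp8 were higher in all of these comparisons. Without both samples of conflicting day label, 1 of the 8 genes (Bax) passed at 9 Gy day 3 with either scaling, where 10.4% of all genes were higher and 12.6% lower with TMM and 24.2% and 6.32% with totals. Atm then differed at day 3 by 1.24 with TMM (adjusted p = 0.188) and 1.65 with totals (adjusted p = 0.123). Bid between doses was 0.51 with TMM (adjusted p = 0.134), and Bcl2 was -0.67 (adjusted p = 0.118). The split of all genes moved too, from 11.2% higher and 41.3% lower to 21.9% and 22.3% with TMM and to 45% and 12.3% with totals at 9 Gy day 3, from 11.9% and 49.1% to 27.9% and 28.3% and to 53.2% and 11.5% at day 7, and from 15.6% and 52% to 33.1% and 29.7% and to 62.5% and 13.4% between doses.

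**Figure D2:**
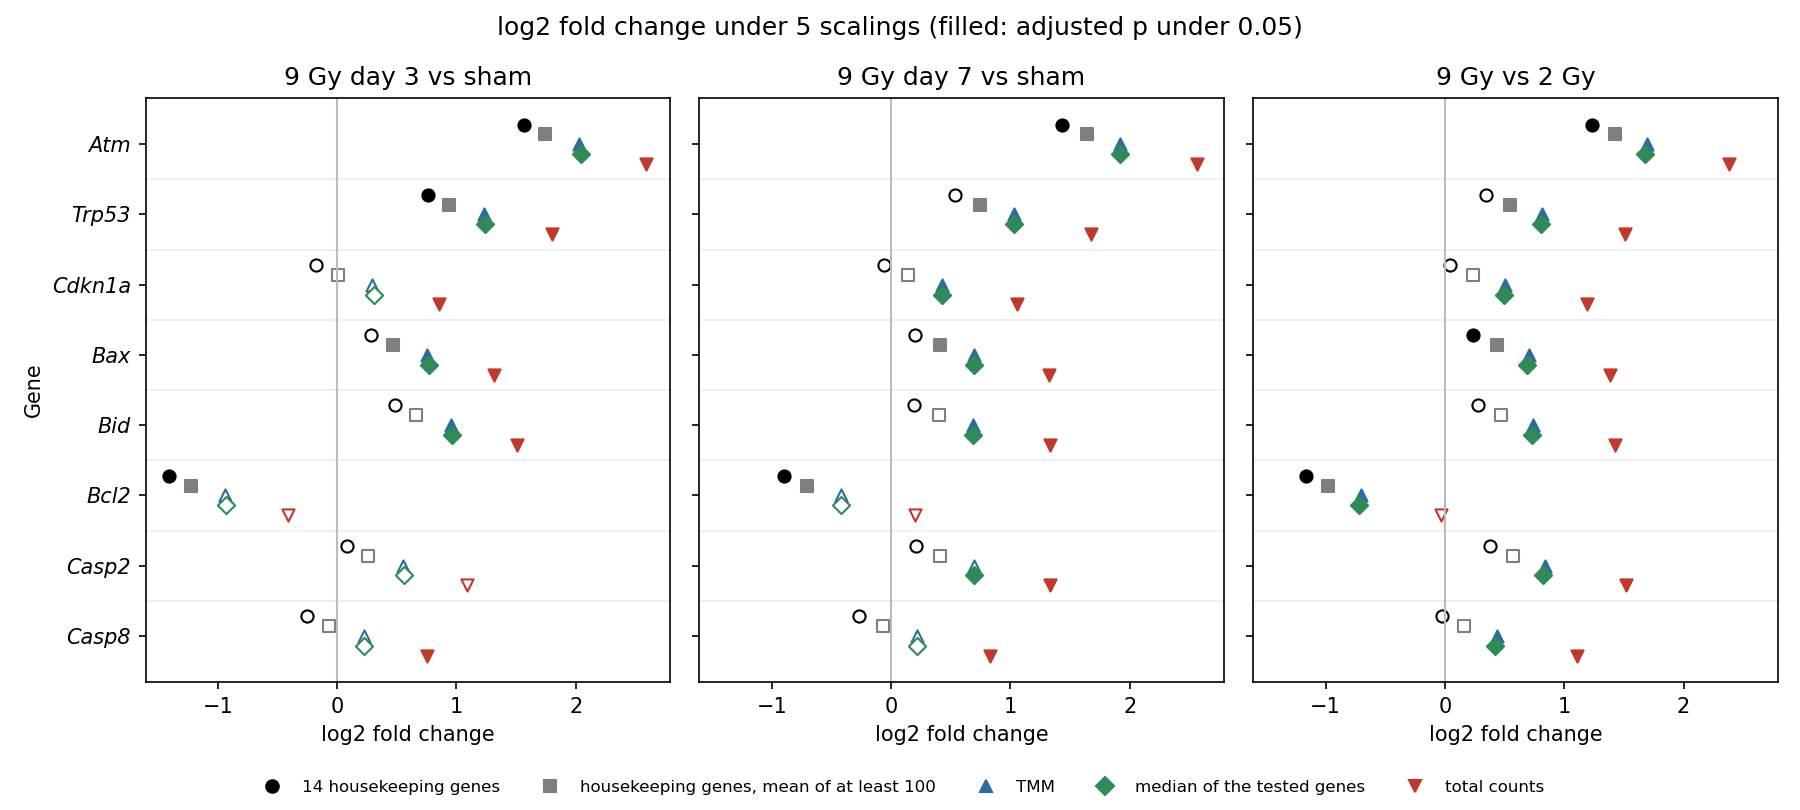
log2 fold change (x axes) of the 8 genes (y axis) in 3 comparisons of 9 Gy EVs under 5 scalings, given by symbol and color; filled symbols passed the test and open ones did not. Atm was filled in every scaling and comparison, whereas Cdkn1a and Casp8 lay on either side of 0 depending on the scaling in the comparisons with sham EVs.

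A ratio of 2 genes within a sample does not depend on the scaling, and these ratios were taken as a description without a test. The log2 ratio of Bax to Bcl2 counts was 3.12, 3.89 and 3.65 in the sham group, 3.83, 3.33 and 3.27 in the 2 Gy day 3 group and 3.29, 3.37 and 4.26 in the 2 Gy day 7 group. It was 4.44, 6.79 and 5.12 in the 9 Gy day 3 group and 4.87, 4.41 and 4.66 in the 9 Gy day 7 group. All 6 samples with 9 Gy EVs were above all 9 others, and the means exceeded that of sham EVs by 1.90 at day 3 and 1.09 at day 7, which are 3.73-fold and 2.13-fold. The day 3 value rests on the few Bcl2 counts, of which that of replicate 2 was 1, the lowest count deposited. Without 9 Gy day 3 replicate 2 it was 1.23, and with 10 counts added to both genes it was -0.043, while that of day 7 was 1.04. With the samples of conflicting day label placed at day 7 the differences were 1.57 and 1.48.

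The log2 ratio of Cdkn1a to Trp53 went the other way. It was 4.49, 4.16 and 4.90 in the sham group, 4.01, 4.03 and 3.90 in the 2 Gy day 3 group and 4.50, 3.94 and 4.001 in the 2 Gy day 7 group. It was 3.20, 3.57 and 4.06 in the 9 Gy day 3 group and 3.69, 3.88 and 4.28 in the 9 Gy day 7 group. All 3 samples in the 2 Gy day 3 group and all 3 in the 9 Gy day 3 group were below all sham samples, and the other groups overlapped with them. The means were lower than that of sham EVs in all 4 groups, by log2 differences of -0.54, -0.37, -0.91 and -0.57. Without sham replicate 3, the highest sham sample, they were -0.35, -0.17, -0.71 and -0.37. With the samples of conflicting day label placed at day 7, the last pair of differences was -0.45 and -0.79.

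**Figure D3:**
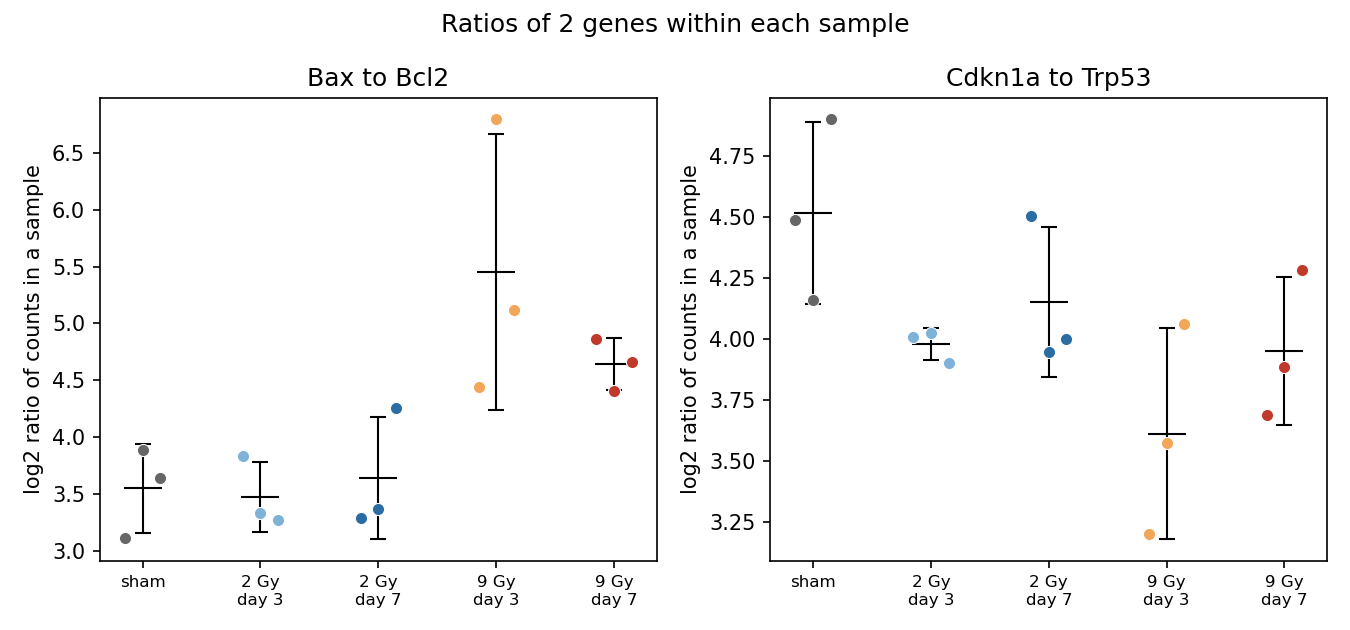
log2 ratio of Bax to Bcl2 counts (left) and of Cdkn1a to Trp53 counts (right) within each sample, by EV group (x axis); points are samples in the order of replicates 1 to 3, bars are the mean and SD of 3 samples, and the y axes do not start at 0. The 6 samples with 9 Gy EVs lay at 4.41 or more for Bax to Bcl2 and the other 9 at 4.26 or less.

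The 2 Gy EVs gave no call among these genes. None of the 8 passed the test at 2 Gy day 3 or 2 Gy day 7 against sham EVs, where 0% of all genes tested passed in either comparison (edgeR). At an unadjusted p under 0.05, 0 of the 8 genes passed in either one, and 7 and 1 of the 269 genes did. DESeq2 also called 0 of the 8. Log2 differences ran from -0.28 (Casp8) to 0.34 (Atm) at day 3 and from -0.24 (Casp2) to 0.29 (Trp53) at day 7. Trp53 was above all sham samples in all 3 samples with 2 Gy day 3 EVs (0.31, 95% interval -0.19 to 0.80). The intervals of Atm (-0.42 to 1.11 at day 3 and -0.59 to 0.97 at day 7) leave out a 2-fold rise of its normalized count at day 7 but not at day 3. Atm held 13 to 23 counts in these samples and no background was subtracted, so a 2-fold rise of its mRNA is not left out.

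No difference between days was called within a dose for the 8 genes in the main fit. For 9 Gy day 7 against day 3, for 2 Gy day 7 against day 3 and for the dose by day interaction, 0 of the 8 genes and 0% of all genes passed the test (edgeR, not paired), with 0 of the 8 and 6, 4 and 4 of all 269 genes at an unadjusted p under 0.05. DESeq2 called 0 of the 8 in all 3. With samples paired by replicate number, an assumed pairing, and only the groups compared, 0 of the 8 passed at either dose. Of all 269 genes, 27 did at 2 Gy (24 higher and 3 lower at day 7) and 0 did at 9 Gy. The unpaired intervals were wide for the genes of few counts. They ran from -0.94 to 0.68 for Atm and from -0.54 to 1.55 for Bcl2 in 9 Gy day 7 against day 3, and from -0.35 to 0.18 for Bax and -0.20 to 0.45 for Cdkn1a.

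In the order of group means, the 9 Gy day 3 and 9 Gy day 7 groups held the highest pair of places for Atm, Trp53, Bax, Bid and Casp2 and the lowest pair for Bcl2. Only Atm, Bax and Bcl2 had a gap between neighboring groups in this order, and for all 3 genes it lay between a 9 Gy and a 2 Gy group. Such gaps were not counted over all genes tested, of which 15.6% were higher and 52% lower between doses. Whether gaps are more frequent in this set was not tested. For Bax the gap was between 404.9 in the lowest 9 Gy day 7 sample and 404.6 in the highest 2 Gy day 3 sample, and 2 Gy day 7 replicate 3 lay above both. Within the 9 Gy day 7 group, replicate 3 was the lowest of its group for 6 of the 8 genes and replicate 2 the highest for 7 of 8, and within the 9 Gy day 3 group replicate 1 was the highest for 5 of 8.

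Few other genes of these pathways could be followed. Of 18 further death receptors, ligands and adaptors, 7 were on the panel and 3 were tested, and 0 changed against sham EVs at 9 Gy day 3 or day 7, while 2 were lower with 9 Gy than with 2 Gy EVs. Of 26 further BCL-2 family genes, caspases and inhibitors of apoptosis, 2 were on the panel and tested, and 1 was lower at 9 Gy day 3, 0 at day 7 and 1 between doses. Of 32 further genes of the DNA damage response and cell cycle checkpoints, 2 were tested, and 1 was lower at 9 Gy day 3, 0 at day 7 and 2 between doses. Of all genes tested, 41.3%, 49.1% and 52% were lower in these comparisons. Without the samples of conflicting day label, 1, 0 and 0 genes of the 3 lists were lower at 9 Gy day 3, 0, 0 and 1 at day 7 and 2, 0 and 0 between doses, where 26%, 51.7% and 46.1% of all genes tested were lower. The median log2 differences of these lists between doses were -0.45, -0.21 and -0.69, beside -0.45 over all genes tested. Genes named from here to the end of the paragraph were chosen after their values were seen. Fas, the death receptor that p53 is known to activate, differed by -0.07 (SE 0.19, adjusted p = 0.773) at 9 Gy day 3 and by -0.07 (SE 0.15, adjusted p = 0.717) at 9 Gy day 7, and was lower between doses (-0.30, SE 0.12, adjusted p = 0.0372), but not without those samples (-0.32, adjusted p = 0.0912). Casp1, the inflammasome caspase, was lower at 9 Gy day 3 (-0.61, SE 0.20, adjusted p = 0.0187) and between doses (-0.37, SE 0.13, adjusted p = 0.0247). Without them it differed by -0.64 (adjusted p = 0.111) and -0.39 (adjusted p = 0.0671).

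Genes outside the set whose pattern was most like that of each gene were sought by Pearson correlation of log2(normalized count + 1) over the 12 samples outside the 9 Gy day 3 group, which share the scaling and span the groups, so the values are a description. Atm was most like Cxcl10 (r = 0.97) and Ifih1 (r = 0.95), both known as interferon-inducible genes, and over all 15 samples like Cxcl10 (r = 0.96) and Tcf4 (r = 0.94). Trp53 was most like Il15ra (r = 0.84) and Cxcl10 (r = 0.83), and over 15 samples like Il15ra (r = 0.92) and Ifit2 (r = 0.89). Bcl2 was most like Cd86 (r = 0.89), a costimulatory ligand, and Ly96 (r = 0.88), the MD-2 part of the LPS receptor, but over 15 samples like Map4k4 (r = 0.89) and Ube2l3 (r = 0.88). Bax was most like Tnfrsf11a (r = 0.89) and Tcf4 (r = 0.87), and over 15 samples like Tcf4 (r = 0.91) and Tyk2 (r = 0.89). Cdkn1a was most like Tyrobp (r = 0.82) and Btk (r = 0.72), but over 15 samples like Tal1 (r = 0.65) and Tyrobp (r = 0.63). Casp8 was most like Bcl6 and Casp1 (r = 0.83 each), but over 15 samples like Ikbkg and Ly96 (r = 0.75 each). Bid was most like Prim1 and Ifit2 (r = 0.61 each), but over 15 samples like Tcf4 and Ifit2 (r = 0.78 each). Casp2 was most like Tcf4 over the 12 samples (r = 0.74). Among the 8 genes themselves, Atm and Trp53 had the highest correlation over these 12 samples (r = 0.79), that of Atm with Bcl2 was -0.65, that of Bax with Bcl2 was -0.67, and that of Trp53 with Cdkn1a was -0.08.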

How the data were processed

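The authors deposited raw nCounter counts for each gene and sample, and per the methods normalized them in nSolver, whose settings and control probes were not used here. Samples were grouped by title. The lowest deposited count was 1. Counts of the 15 samples were scaled to the geometric mean of 14 housekeeping genes, and the 269 of 561 genes that averaged 20 counts or more entered one edgeR quasi-likelihood fit over all 5 groups (edgeR 4.0.16, R 4.3.3, prior count 0.125). P-values were adjusted by Benjamini-Hochberg over all genes tested, with a threshold of 0.05, and SE is the log2 fold change over the square root of F. An exact permutation test of 3 against 3 samples cannot go below 0.1 and was not used. The procedure was run on simulated counts in which genes other than the housekeeping genes were changed in the 9 Gy day 7 group only. This covered neither shifts of the housekeeping genes nor the shallow 9 Gy day 3 comparison. The genes, lists and motifs were chosen with earlier results of these data known, and all 9 genes were named, with the 2 most correlated genes of each, of which 1 is not reported here. Deviations of same-numbered samples correlated at 0.397 to 0.783 between the 2 Gy groups and at 0.354 to 0.733 between the 9 Gy groups. Samples of unlike number reached 0.616 and 0.443, above some same-numbered ones, so the numbers do not single out pairs. Pairing samples by number between days within a dose was thus an assumption. The alternatives were 4 scalings, 2 filters, a prior count of 10, a count floor of 20, only the groups compared, a replicate block, DESeq2 1.42.0, both treatments of the conflicting day labels and leaving out each sample. The paired fit of a dose's own groups, no filter with the other scalings, and further results without the samples of conflicting label were added after seeing the data.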

Additional observations from a re-analysis of the deposited data

How the results depend on the processing

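Under every alternative run, 0 of the genes tested among the 8 passed in the 2 Gy comparisons with sham EVs. At 9 Gy day 3 against sham EVs 3 genes were called, which became 6 with total counts (45% of all genes higher, 12.3% lower) and 0 with the samples of conflicting day label at day 7 (2.97%, 24.5%) or left out (2.97%, 26%). The day 3 count was 4, all higher, with the median of the tested genes (22.3%, 22.7%) or TMM (21.9%, 22.3%). It was 4, with 3 higher and 1 lower, with housekeeping genes of a mean of at least 100 (14.9%, 34.6%). At 9 Gy day 7 the count of 2 became 6 with the median of the tested genes (28.3% of all genes higher, 28.6% lower), 5 with TMM (27.9%, 28.3%), 7 with total counts (53.2%, 11.5%), 4 with housekeeping genes of a mean of at least 100 (17.8%, 40.9%), 6 with DESeq2 and its own size factors (29%, 29%) and 0 with a mean of at least 100 counts (10.4%, 56.1%), a filter that Atm and Bcl2 do not pass. Leaving out 1 sample gave 1 to 3 on day 3 (7.81% to 11.5% higher, 33.5% to 40.9% lower), 1 to 3 on day 7 (8.92% to 13.8%, 45% to 49.8%) and 2 to 4 between doses (14.1% to 16%, 47.2% to 52%). Between 9 Gy and 2 Gy the count of 3 became 8 with the median of the tested genes (32.3%, 30.5%), TMM (33.1%, 29.7%) or DESeq2 with its own size factors (32.7%, 30.5%), 7 with total counts (62.5%, 13.4%), and 1 with a mean of at least 100 counts (12.2%, 62.2%) or with the samples of conflicting label at day 7 (9.67%, 48.3%) or left out (8.92%, 46.1%). Setting counts under 20 to 20, which by construction lifts the shallow 9 Gy day 3 samples, gave 4 genes between the 9 Gy days (11.5%, 25.3%) and 2 in the interaction (1.86%, 21.2%), from 0. Without the samples of conflicting label, as chosen after seeing the data, TMM gave 1 gene at 9 Gy day 3 (10.4%, 12.6%), 5 at day 7 (27.5%, 28.6%) and 5 between doses (25.3%, 24.2%), and total counts 1 (24.2%, 6.32%), 7 (54.3%, 11.5%) and 7 (54.3%, 10.8%).

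Where the main setting or the alternative passed the test, signs turned as follows. Cdkn1a at 9 Gy day 7 became 0.43 with the median of the tested genes, TMM (0.43) and DESeq2 with its own size factors (0.43) and 1.06 with total counts, and at day 3 0.85 with total counts. Casp8 between doses became 0.42 with the median, 0.43 with TMM, 0.42 with DESeq2 and 1.10 with total counts, which also gave 0.76 at day 3 and 0.83 at day 7. Bcl2 at day 7 became 0.20 with total counts. Without the samples of conflicting label, TMM gave 0.43 for Cdkn1a at day 7 and 0.52 for Casp8 between doses, and total counts 1.06 for Cdkn1a, 0.83 for Casp8 and 0.20 for Bcl2 at day 7 and 1.122 for Casp8 between doses. With the count floor Bcl2 became 1.03 at 9 Gy day 3, 0.055 between doses, -1.86 between the 9 Gy days and -1.66 in the interaction, and Casp2 became -1.19 and -1.18 in the last pair. Other turns, which passed in neither setting, include Cdkn1a at 9 Gy day 3 (0.31 with the median, 0.29 with TMM) and Casp8 at day 3 (0.23, 0.22) and day 7 (0.21 with each). The log2 ratio of Bax to Bcl2 at 9 Gy day 3 minus sham turned to -0.043 with 10 counts added to both genes, and that of Cdkn1a to Trp53 kept its sign but moved from -0.91 to -0.45 with the samples of conflicting label at day 7.

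The replicate block takes same-numbered samples as matched, which is an assumption. With it 0 of the 8 genes passed between the days of either dose with all groups (0% of all genes). The same held, as chosen after seeing the data, with only the groups compared, which called 0 of 269 genes at 9 Gy and 27 at 2 Gy. The block gave 3 genes in each of the comparisons of 9 Gy EVs with sham or 2 Gy EVs (146, 172 and 185 of all 269), with Trp53 at 9 Gy day 7 at 0.52 (edgeR, adjusted p = 0.0497). Trp53 at 9 Gy day 3 missed the threshold with only the groups compared (0.76, adjusted p = 0.058), and Bax between doses with no filter (0.24, adjusted p = 0.0715). Depth limits Atm, Bid, Bcl2 and Casp2 in the 9 Gy day 3 samples, where they had 1 to 17 counts each.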
